A study of Mus musculus with 18 samples.

Results

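The 12 livers of mice given a perfluorinated compound fell into a set of 5 and a set of 7 arrays, and these sets did not follow the study's groups. The 5 arrays were all 3 of the high-fat PFOS group (H-PFOS), replicate 3 of the low-fat PFOS group (L-PFOS 3) and replicate 3 of the high-fat PFNA group (H-PFNA 3). The 7 arrays were the other exposed livers, namely L-PFOS 1 and 2, H-PFNA 1 and 2, and all 3 of the low-fat PFNA group (L-PFNA). The sets were formed from measured signals, so every difference between them below is a description and carries no test. They hold 5 and 7 of the 12 exposed arrays among 18 arrays in all, the other 6 being controls.

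All mice were male C57BL6 animals, and their food was the only difference between groups that the labels give. The exposed groups were H-PFOS and H-PFNA, which ate a high-fat diet with 45% of energy from fat that held the compound, and L-PFOS and L-PFNA, which ate a low-fat diet with 10% of energy from fat that held it. The control groups ate the high-fat diet alone (HFD) or the low-fat diet alone (LFD). Feeding lasted 12 weeks, from an age of 6 to an age of 18 weeks, each group has 3 arrays that the labels call biological replicates, and no label gives a dose. PFOS is a fluorinated sulfonic acid and PFNA a fluorinated carboxylic acid. Diet and compound were unevenly spread over the sets: the 5 had 4 high-fat arrays and 1 low-fat array, and 4 PFOS arrays and 1 PFNA array, whereas the 7 had 2 high-fat and 5 low-fat arrays, and 2 PFOS and 5 PFNA arrays.

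The markers given for the sets belong to 2 nuclear receptors of the liver. PPARA is a fatty acid sensor that pairs with RXR on direct repeats of a hexamer spaced by a single base, and in mouse liver it drives peroxisomal and mitochondrial fatty acid oxidation, acyl-CoA thioesterases and the microsomal Cyp4a enzymes. CAR (Nr1i3) and its relative PXR (Nr1i2) sense drugs and other foreign compounds, also pair with RXR, and drive cytochrome P450 enzymes of the Cyp2b, Cyp2c and Cyp3a families together with conjugating enzymes and transporters. Perfluorinated acids are known activators of both arms in rodent liver.

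L-PFOS 3 and H-PFNA 3 stood apart from their own groups on the whole array. The distance of a pair of arrays was taken as the standard deviation, over 34472 probes, of their difference in log2 signal. L-PFOS 3 lay 0.321 from H-PFNA 3, its nearest array, and 0.408 and 0.414 from the other 2 L-PFOS arrays. H-PFNA 3 likewise lay 0.389 and 0.397 from the other 2 H-PFNA arrays. Distances ran from 0.321 to 0.367 within the 5, from 0.292 to 0.357 within the 7 and from 0.370 to 0.442 between the sets, so no pair across the sets was as close as a pair inside one. The labels were kept as given, and whether these 2 arrays carry the right label was not tested. Array medians lay between 4.43 and 4.59 on the log2 scale.

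The names PPARA-high and CAR-high hold in part. Genes of fatty acid oxidation were high in the 5 and near control level in the 7. Cyp2b10, the marker of CAR, was far above the controls in both sets and higher still in the 7, and several other CAR and PXR genes overlapped between the sets. The sets are therefore called the 5 and the 7 below. Hepatocyte markers had high signals in both sets, with a list mean of 11.55 to 11.62 in the 5, 11.66 to 11.76 in the 7 and 11.74 to 11.87 in the controls, so the 5 were slightly below the 7 and the controls. Alb, serum albumin, read 13.81 to 13.91 in the 5, 13.81 to 13.95 in the 7 and 13.89 to 13.95 in the controls, near the top of the signal range, where a change would be hard to see.

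The sequences just before the transcription start of 5 genes show what each receptor's motif looks like in this gene set. Fabp1, Ehhadh and Ucp3 stand for fatty acid handling and were high in the 5, and Cyp2b10 and Cyp3a11 stand for the response to foreign compounds. Each run holds the 250 bases before the start, 5′ to 3′ on the gene's strand, from the RefSeq promoters of build GRCm38.p6. Capitals mark matches, on either strand, to the PPARA-type repeat AGGNCANAGGNCA, to the CAR- and PXR-type repeat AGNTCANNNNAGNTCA, or to the single half-site AGGTCA, which can lie inside either repeat. They lie at chr6:71199629-71199878 on the plus strand (Fabp1), chr16:21787835-21788084 on the minus strand (Ehhadh), chr7:100472741-100472990 on the plus strand (Ucp3), chr7:25897408-25897657 on the plus strand (Cyp2b10) and chr5:145879855-145880104 on the minus strand (Cyp3a11).
Fabp1: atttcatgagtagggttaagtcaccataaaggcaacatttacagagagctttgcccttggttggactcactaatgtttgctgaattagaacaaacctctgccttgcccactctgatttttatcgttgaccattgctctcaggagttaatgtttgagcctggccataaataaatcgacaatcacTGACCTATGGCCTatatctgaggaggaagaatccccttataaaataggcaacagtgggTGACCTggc
Ehhadh: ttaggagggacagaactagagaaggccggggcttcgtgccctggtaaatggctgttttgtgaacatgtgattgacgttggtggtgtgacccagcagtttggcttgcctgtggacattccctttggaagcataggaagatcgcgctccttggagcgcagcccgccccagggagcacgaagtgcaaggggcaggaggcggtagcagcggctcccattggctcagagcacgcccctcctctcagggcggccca
Ucp3: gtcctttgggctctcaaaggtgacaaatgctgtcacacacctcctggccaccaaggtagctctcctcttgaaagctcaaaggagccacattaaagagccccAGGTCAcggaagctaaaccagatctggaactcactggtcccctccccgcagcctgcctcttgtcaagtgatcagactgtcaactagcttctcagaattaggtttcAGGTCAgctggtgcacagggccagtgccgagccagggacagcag
Cyp2b10: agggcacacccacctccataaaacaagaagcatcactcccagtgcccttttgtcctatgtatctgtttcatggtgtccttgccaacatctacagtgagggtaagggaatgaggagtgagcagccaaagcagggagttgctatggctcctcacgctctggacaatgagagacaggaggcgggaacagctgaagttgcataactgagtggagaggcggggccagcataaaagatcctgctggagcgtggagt
Cyp3a11: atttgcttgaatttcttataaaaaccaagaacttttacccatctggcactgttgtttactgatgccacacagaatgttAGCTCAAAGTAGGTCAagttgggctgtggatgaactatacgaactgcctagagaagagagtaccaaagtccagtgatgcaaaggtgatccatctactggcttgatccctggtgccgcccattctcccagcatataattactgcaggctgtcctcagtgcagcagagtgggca

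In Fabp1, the liver fatty acid binding protein, the capitals TGACCTATGGCCT are a PPARA-type repeat read on the opposite strand, whose first base lies 67 bases before the start. It was the only such repeat among 69 promoters of 62 genes in the PPARA and fatty acid oxidation lists (1.45%), where 111 of all 32851 promoters held one (0.338%). In Cyp3a11 the capitals AGCTCAAAGTAGGTCA are the longer repeat, 172 bases before the start, again the only match among 39 promoters of 34 genes in the CAR and PXR list (2.56%, against 0.103% of all promoters). The half-site alone stood in 23.2% of the first group, 33.3% of the second and 14.02% of all promoters, and Ucp3 holds it at 149 and 44 bases before the start. Of the genes that parted the sets, 12.2% of promoters of those higher in the 5 and 12.5% of those lower held the half-site, below the share of all promoters. The PPARA-type repeat stood in 0.268% of the promoters of genes higher in the 5 and in 0.456% of those lower, and the longer repeat in none of either. No motif stood in the windows shown for Ehhadh and Cyp2b10, which says only that these letters are absent from 250 bases.

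Ehhadh, the bifunctional enzyme of peroxisomal fatty acid oxidation, read 12.91, 13.26, 13.12, 13.17 and 13.18 in the 5 (here and below in the order H-PFOS 1, 2 and 3, L-PFOS 3, H-PFNA 3). The 7 had a lowest value of 11.21, a median of 11.51 and a highest of 11.70, and the 6 controls a lowest of 11.05, a median of 11.23 and a highest of 11.66. All 5 were thus above every other liver, and the 7 overlapped the controls. Acot1, a cytosolic acyl-CoA thioesterase, read 10.80, 11.42, 11.74, 11.47 and 11.17 in the 5, 9.55 to 10.12 in the 7 and 8.35 to 9.51 in the controls. Here the 7 lay between the 5 and the controls without touching either.

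Pdk4, the kinase that shuts off pyruvate dehydrogenase in fasting, read 10.13, 10.45, 11.21, 10.55 and 10.68 in the 5, 6.50 to 7.83 in the 7 and 6.57 to 7.71 in the controls. Cidea, a lipid droplet protein that is low in lean liver, read 11.02, 9.94, 10.86, 10.99 and 10.58 in the 5. The 7 had a lowest value of 4.37, a median of 4.71 and a highest of 5.34. Of the controls, HFD 1 had 7.89 and the other 5 had at most 4.38, so 1 unexposed high-fat liver stood between the sets. Cyp2b10 read 7.26, 9.28, 8.91, 7.94 and 7.70 in the 5, against a lowest value of 9.44, a median of 9.91 and a highest of 10.63 in the 7 and 3.81 to 4.58 in the controls. All 7 exceeded all 5, but by a gap of only 0.16 between H-PFOS 2 and L-PFNA 1, and both sets were far above the controls. L-PFOS 3 and H-PFNA 3 lay inside the range of the H-PFOS arrays for Ehhadh, Acot1, Pdk4, Cidea and Cyp2b10.

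**Figure D1:**
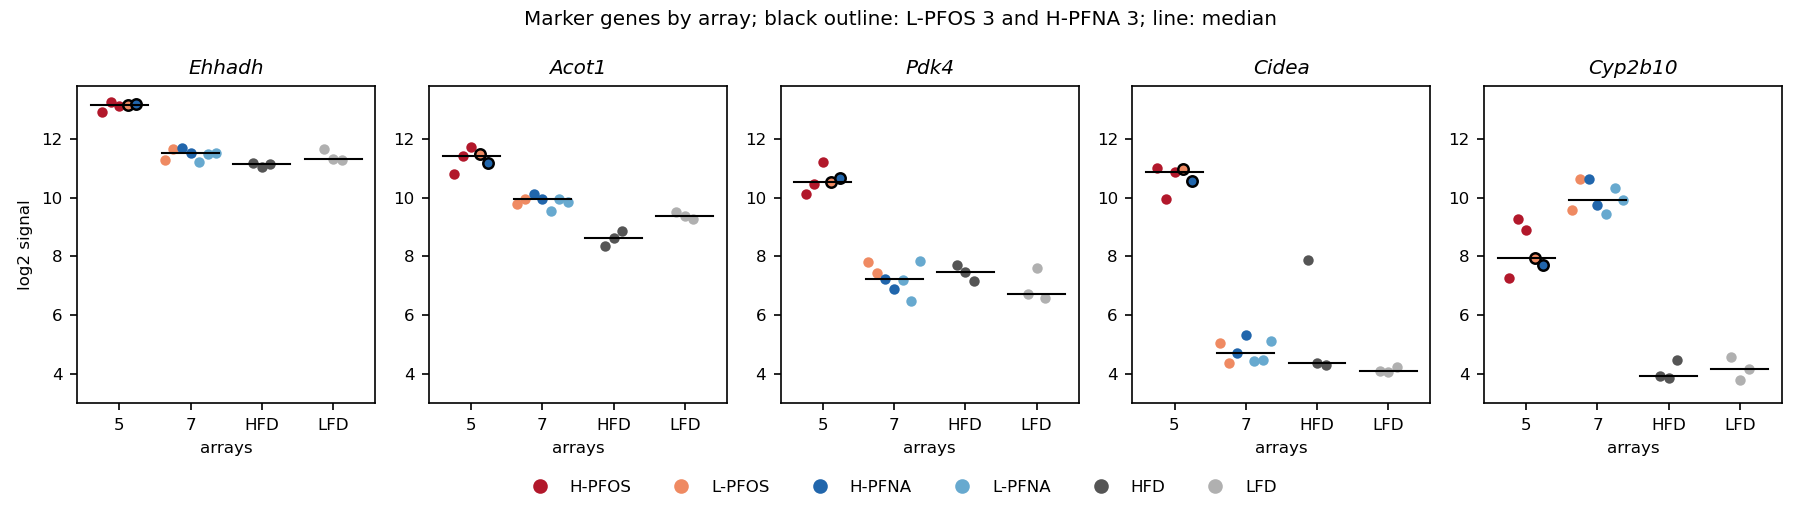
Log2 signal (y axis) of the 5 marker genes in the 5 arrays, the 7 arrays and the HFD and LFD controls (x axis). Each point is 1 array, coloured by its group, black outlines mark L-PFOS 3 and H-PFNA 3, and the line is the median of the column. Ehhadh is at 12.91 to 13.26 in the 5 and 11.21 to 11.70 in the 7, whereas Cyp2b10 is at 7.26 to 9.28 in the 5 and 9.44 to 10.63 in the 7, above controls at 3.81 to 4.58.

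Over all probes, 1456 (4.22%) were higher in every one of the 5 than in every one of the 7, and 1428 (4.14%) were lower in every one. The median difference of medians, 5 minus 7, was 0.00 over 34472 probes, and the 5th and 95th percentiles were -0.40 and 0.41. These are the values against which the counts of each gene list are read. Of the 33 other PPARA targets, a mixed list of lipid-handling and other genes that shares Ehhadh with the peroxisomal list, 22 were higher in the 5 and 1 was lower, with a median difference of 0.69. Of 37 CAR and PXR targets, 2 were higher in the 5 and 13 lower, with a median of -0.38. These lists hold markers by which the sets were given, Ehhadh, Acot1 and Pdk4 in the first and Cyp2b10 in the second, and so does every mean over them below. Without these markers 19 of 30 other PPARA targets were higher and 1 lower (median 0.60), and 2 of 36 CAR and PXR targets were higher and 12 lower (median -0.35).

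The mean log2 signal over each of these lists put the 18 livers in 3 places. For the other PPARA targets it was 9.98 to 10.24 in the 5, 9.07 to 9.29 in the 7, 8.87 to 8.98 in HFD and 8.87 to 8.93 in LFD livers. For the CAR and PXR targets it was 8.48 to 8.65 in the 5, 8.91 to 9.34 in the 7, 8.34 to 8.51 in HFD and 8.08 to 8.25 in LFD livers. The 7 were thus above all controls on both lists, while the 5 were far above on the PPARA list and overlapped the HFD controls on the CAR and PXR list. Without the markers the means were 9.82 to 10.06 in the 5, 9.05 to 9.24 in the 7 and 8.86 to 8.97 in the controls for the PPARA list, and 8.5 to 8.68 in the 5, 8.90 to 9.32 in the 7 and 8.17 to 8.64 in the controls for the CAR and PXR list.

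**Figure D2:**
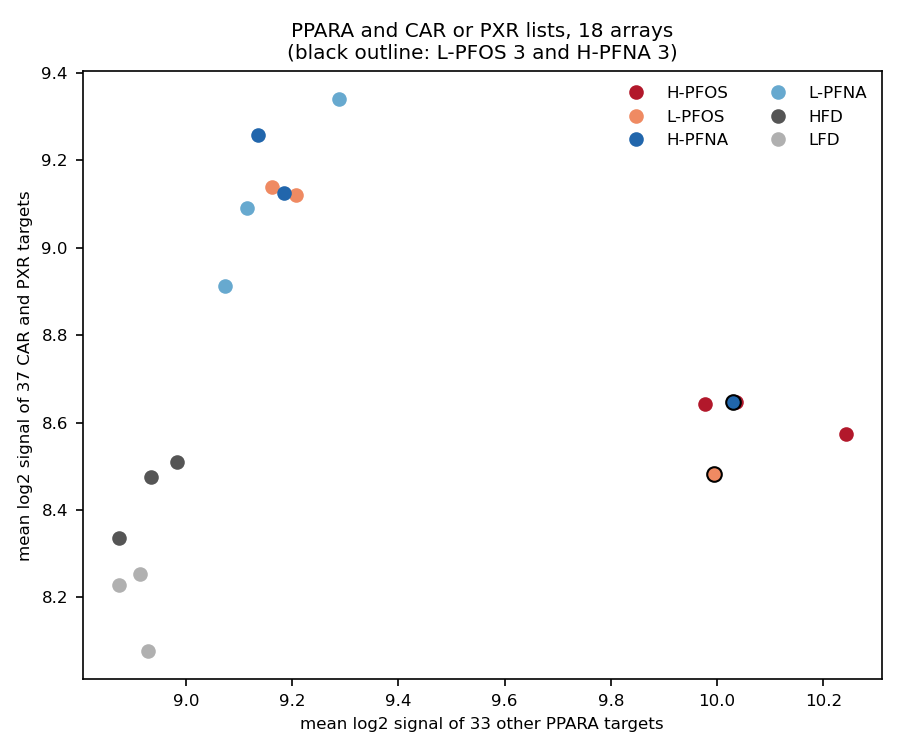
Mean log2 signal of 33 other PPARA targets (x axis) and of 37 CAR and PXR targets (y axis) in each of the 18 arrays, coloured by group, with L-PFOS 3 and H-PFNA 3 outlined in black and the marker genes of the sets included in both means. The 5 sit at 9.98 to 10.24 on the x axis, the 7 at 9.07 to 9.29, with 8.48 to 8.65 and 8.91 to 9.34 on the y axis.

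Peroxisomal fatty acid oxidation had 24 measured genes, of which 13 were higher in the 5 and none lower (median difference 0.46). For 13 of the 24 all 5 were above all controls, and for 1 all 7 were. Here and below this condition is stricter for 7 arrays than for 5, so such counts are not on equal terms. Besides Ehhadh the 13 were Hsd17b4, Acaa1b, Acot4, Crot, Ech1, Eci2, Decr2, Abcd3, Pex11a, Pex19, Slc27a2 and Acot6, named after their values were seen. Pex11a, which promotes division of peroxisomes, read 10.61 to 10.93 in the 5, 9.68 to 9.96 in the 7 and 9.53 to 9.98 in the controls. Acot6, a peroxisomal thioesterase, read 5.97 to 6.33 in the 5, 4.69 to 5.31 in the 7 and 4.21 to 5.01 in the controls. Abcd2, a peroxisomal importer of very-long-chain acyl-CoA, overlapped (8.74 to 9.12 in the 5, 7.0 to 8.99 in the 7 and 7.30 to 9.13 in the controls). Acaa1b, the peroxisomal thiolase, read 12.21 to 12.45 in the 5, 11.74 to 11.96 in the 7 and 11.40 to 11.70 in the controls, with no overlap anywhere. Of 13 genes of peroxisome biogenesis, 5 were higher in the 5 and 1 was lower. The lower one was Pex26, a membrane anchor of the import machinery (7.44 to 7.83 in the 5, 8.0 to 8.54 in the 7, 7.50 to 7.79 in the controls).

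Mitochondrial fatty acid oxidation had 21 measured genes, with 13 higher in the 5, 1 lower and a median difference of 0.37. All 5 exceeded all controls for 17 of them and all 7 for 3. The 13, named after their values were seen, ran along the chain: the acyl-CoA dehydrogenases Acadvl, Acadl, Acadm and Acads, then Hadha and Acaa2, the auxiliary enzymes Decr1 and Eci1, the electron carriers Etfa, Etfb and Etfdh, and Acot2 and Ucp3. The gene that went the other way was Cpt1a, which makes the acylcarnitine that enters the mitochondrion. Acot2, the mitochondrial thioesterase, read 12.85, 12.90, 13.41, 12.93 and 12.86 in the 5, 10.43 to 11.45 in the 7 and 10.25 to 10.61 in the controls. Ucp3, a mitochondrial carrier that is usually a muscle gene, read 6.79, 5.87, 6.28, 6.45 and 6.54 in the 5, 3.46 to 4.18 in the 7 and 3.33 to 3.93 in the controls. Smaller gaps were seen for Eci1 (10.74 to 11.07 in the 5, 9.87 to 10.25 in the 7) and Etfb (10.38 to 10.67 in the 5, 9.72 to 10.01 in the 7).

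The respiratory chain took the same direction with smaller steps. Of 30 nuclear-encoded subunits, 19 were higher in the 5 and 1 lower, with a median of 0.30. Cycs, cytochrome c, read 10.93 to 11.11 in the 5, 9.89 to 10.06 in the 7 and 10.08 to 10.51 in the controls, so the 5 were above and the 7 below every control. Uqcrb, a small subunit of complex III, showed the same double separation (11.73 to 12.03 in the 5, 11.06 to 11.36 in the 7, 11.42 to 11.70 in the controls). Uqcrc1, a core subunit of the same complex, was the exception, at 10.06 to 10.24 in the 5, 10.59 to 10.84 in the 7 and 9.94 to 10.23 in the controls.

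The other PPARA list held genes of several roles, among them fatty acid uptake and storage. Cd36, the plasma membrane fatty acid transporter, read 11.36 to 11.76 in the 5, 10.04 to 10.79 in the 7 and 8.97 to 10.67 in the controls. Fabp1 read 12.77 to 12.95 in the 5, 12.09 to 12.41 in the 7 and 12.37 to 12.57 in the controls. Aqp3, a glycerol and water channel, read 6.25, 7.35, 7.93, 7.38 and 6.44 in the 5, 4.31 to 4.85 in the 7 and 4.05 to 4.98 in the controls. Mogat1, which adds a fatty acid to monoacylglycerol, was stepped, with 7.69 to 8.25 in the 5, 5.52 to 6.64 in the 7 and 4.56 to 5.14 in the controls. Cyp4a14, a microsomal fatty acid hydroxylase near the top of the signal range, differed less (13.39 to 13.52 in the 5, 13.02 to 13.24 in the 7, 12.58 to 13.11 in the controls). Vnn1, a pantetheinase, had a median of 11.35 in the 5, 10.86 in the 7 and 10.61 in the controls, with the lowest of the 5 just above the highest of the 7 (10.97).

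Other classical PPARA targets did not part the sets. Angptl4, an inhibitor of lipoprotein lipase, read 9.79 to 10.05 in the 5, 9.55 to 9.94 in the 7 and 9.68 to 10.28 in the controls. Fgf21, the fasting hormone, read 6.69, 7.29, 9.02, 6.32 and 7.44 in the 5, 6.15 to 7.84 in the 7 and 7.01 to 7.96 in the controls, with H-PFOS 3 alone above every control. In the list of ketone body synthesis and fasting regulators, 3 of 14 were higher in the 5 and 2 lower (median 0.12). Apart from Pdk4, Slc16a1, a ketone and lactate carrier, was higher (9.12 to 9.77 in the 5, 7.84 to 8.23 in the 7, 8.19 to 8.89 in the controls), whereas Igfbp1 overlapped (7.71 to 9.41 in the 5, 5.94 to 7.99 in the 7, 7.61 to 8.79 in the controls).

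Some lipid synthesis genes were also higher in the 5. Among 26 genes that build fatty acids and triglycerides, 10 were higher in the 5 and 1 lower, or 3 lower without H-PFOS 1 (median 0.30). Acacb, the acetyl-CoA carboxylase at the mitochondrial surface, read 7.77 to 9.26 in the 5, 6.47 to 6.80 in the 7 and 5.90 to 6.77 in the controls. Me1, malic enzyme, a source of NADPH, read 10.71 to 11.86 in the 5, 9.26 to 9.96 in the 7 and 8.95 to 9.72 in the controls. For both genes H-PFOS 1 was the highest of the 18 arrays. Pklr, liver pyruvate kinase, overlapped, with 9.66, 8.24, 8.32, 8.65 and 8.49 in the 5 and 9.33 to 10.26 in the 7. Of 19 lipid droplet proteins and lipases, 4 were higher, the marker Cidea among them, and none lower, and 7 were higher without H-PFOS 2. Cidec, which fuses droplets, read 10.14 to 10.49 in the 5, 7.31 to 8.99 in the 7 and 6.74 to 9.07 in the controls, and Plin2, a droplet coat protein, 11.19 to 11.57 in the 5 and 10.34 to 10.79 in the 7, with a control median of 10.88 and all controls below the 5. Fitm2, a protein of droplet budding, read 8.98 to 9.27 in the 5, 8.49 to 8.71 in the 7 and 8.32 to 8.64 in the controls.

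Of 19 genes of cholesterol synthesis and uptake, 6 were higher in the 5 and none lower (median 0.40). Over all 19 genes, the 5 were above all controls for 3 and the 7 for 2. Hmgcs1, the enzyme of the step before HMG-CoA reductase, read 10.57, 9.65, 9.5, 9.5 and 9.73 in the 5, 7.93 to 8.98 in the 7, 9.81, 9.52 and 9.74 in HFD and 8.31, 8.10 and 8.51 in LFD livers. The 5 thus sat near the HFD controls and the 7 near the LFD controls, yet L-PFOS 3 was with the high-fat values and H-PFNA 1 and 2 (8.08 and 8.42) with the low-fat ones. Fdps, farnesyl diphosphate synthase, showed the same order, with 9.58, 8.23, 7.13, 7.84 and 7.68 in the 5, 5.88 to 6.70 in the 7 and 6.08 to 7.59 in the controls. Of 22 NRF2 targets, genes of antioxidant defence and NADPH supply, 7 were higher in the 5 and none lower. Taldo1, an enzyme of the pentose phosphate pathway, read 8.02 to 8.37 in the 5, 7.19 to 7.67 in the 7 and 7.03 to 7.69 in the controls, and Abcc4, an efflux pump, 6.43 to 7.92 in the 5, 5.29 to 5.98 in the 7 and 5.04 to 5.93 in the controls. Nqo1, the quinone reductase, overlapped between the sets and read 6.86 to 7.13 in the 5, 6.32 to 7.01 in the 7 and 5.45 to 6.51 in the controls.

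The CAR and PXR list was split. All 7 were above all controls for 16 of its 37 genes, and all 5 were for 9. The 13 genes that were lower in the 5 were Cyp2b10, Cyp2c29, Cyp2c37, Cyp2c50, Cyp2c54, Cyp2a4, Cyp2a5, Gstt1, Slco1a4, Alas1, Ces2a, Papss2 and Cyp1a2, and the 2 higher ones were Abcc2 and Aldh1a7, all named after their values were seen. Cyp2c37, an enzyme of the Cyp2c family, read 9.12, 10.65, 9.73, 9.78 and 10.26 in the 5, 11.39 to 11.90 in the 7 and 10.77 to 11.18 in the controls, so that the 7 were above and the 5 below every control. Cyp2c55, a relative that is low in untreated liver, was above the controls in both sets (7.63, 6.87, 7.35, 6.85 and 6.44 in the 5, 7.43 to 8.55 in the 7, 3.87 to 4.90 in the controls), with H-PFOS 1 inside the range of the 7. These are values of the brighter of its 2 probes. With the median of both the difference of medians was -0.66 rather than -1.53, with 5.92 to 7.01 in the 5, 6.30 to 6.95 in the 7 and 4.32 to 5.24 in the controls. Cyp2a4, a steroid hydroxylase, read 8.34 to 9.21 in the 5, 9.23 to 9.73 in the 7 and 8.19 to 9.03 in the controls.

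Several inducible genes were high in both sets. Cyp3a11, the main drug-metabolising Cyp3a enzyme, read 10.74 to 11.09 in the 5, 10.88 to 11.51 in the 7 and 9.56 to 10.40 in the controls. Abcc3, an efflux pump of the sinusoidal membrane, read 10.90 to 11.17 in the 5, 10.95 to 11.15 in the 7 and 9.83 to 10.75 in the controls. Gstm3, a glutathione transferase, read 9.89, 7.30, 7.92, 7.75 and 8.20 in the 5, 7.85 to 9.95 in the 7 and 4.68 to 7.54 in the controls. Cyp2b9, a relative of Cyp2b10 that is known to be higher in female mice, read 11.36 to 12.36 in the 5, 10.76 to 12.01 in the 7, 11.68, 11.52 and 11.96 in HFD livers and 7.93, 9.35 and 10.07 in LFD livers. Probes of the Cyp2b, Cyp2c, Cyp2a, Acot, Slco1a and Ugt2b families can bind transcripts of close relatives, so values of single members of these families are uncertain.

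The receptor genes differed less. Ppara read 9.73 to 10.01 in the 5, 9.72 to 10.07 in the 7 and 9.86 to 10.02 in the controls, with full overlap. Nr1i3, which encodes CAR, read 10.33, 10.75, 10.77, 10.55 and 10.70 in the 5, 11.04 to 11.40 in the 7 and 10.86 to 11.23 in the controls, so the 5 were below every other liver. Nr1i2, which encodes PXR, read 9.12 to 9.64 in the 5, 9.46 to 9.76 in the 7 and 8.97 to 9.39 in the controls. Rxra, the common partner, read 9.73 to 9.92 in the 5, 10.05 to 10.23 in the 7 and 10.03 to 10.49 in the controls. Of 22 nuclear receptors and partners, 6 were lower in the 5 and none higher, among them Ahr, the dioxin receptor (7.56 to 8.06 in the 5, 8.26 to 8.79 in the 7, 8.37 to 9.32 in the controls), and Nr1h3, which encodes the oxysterol receptor LXR alpha (7.57 to 7.83 in the 5, 7.90 to 8.12 in the 7, 7.60 to 7.87 in the controls).

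**Figure D3:**
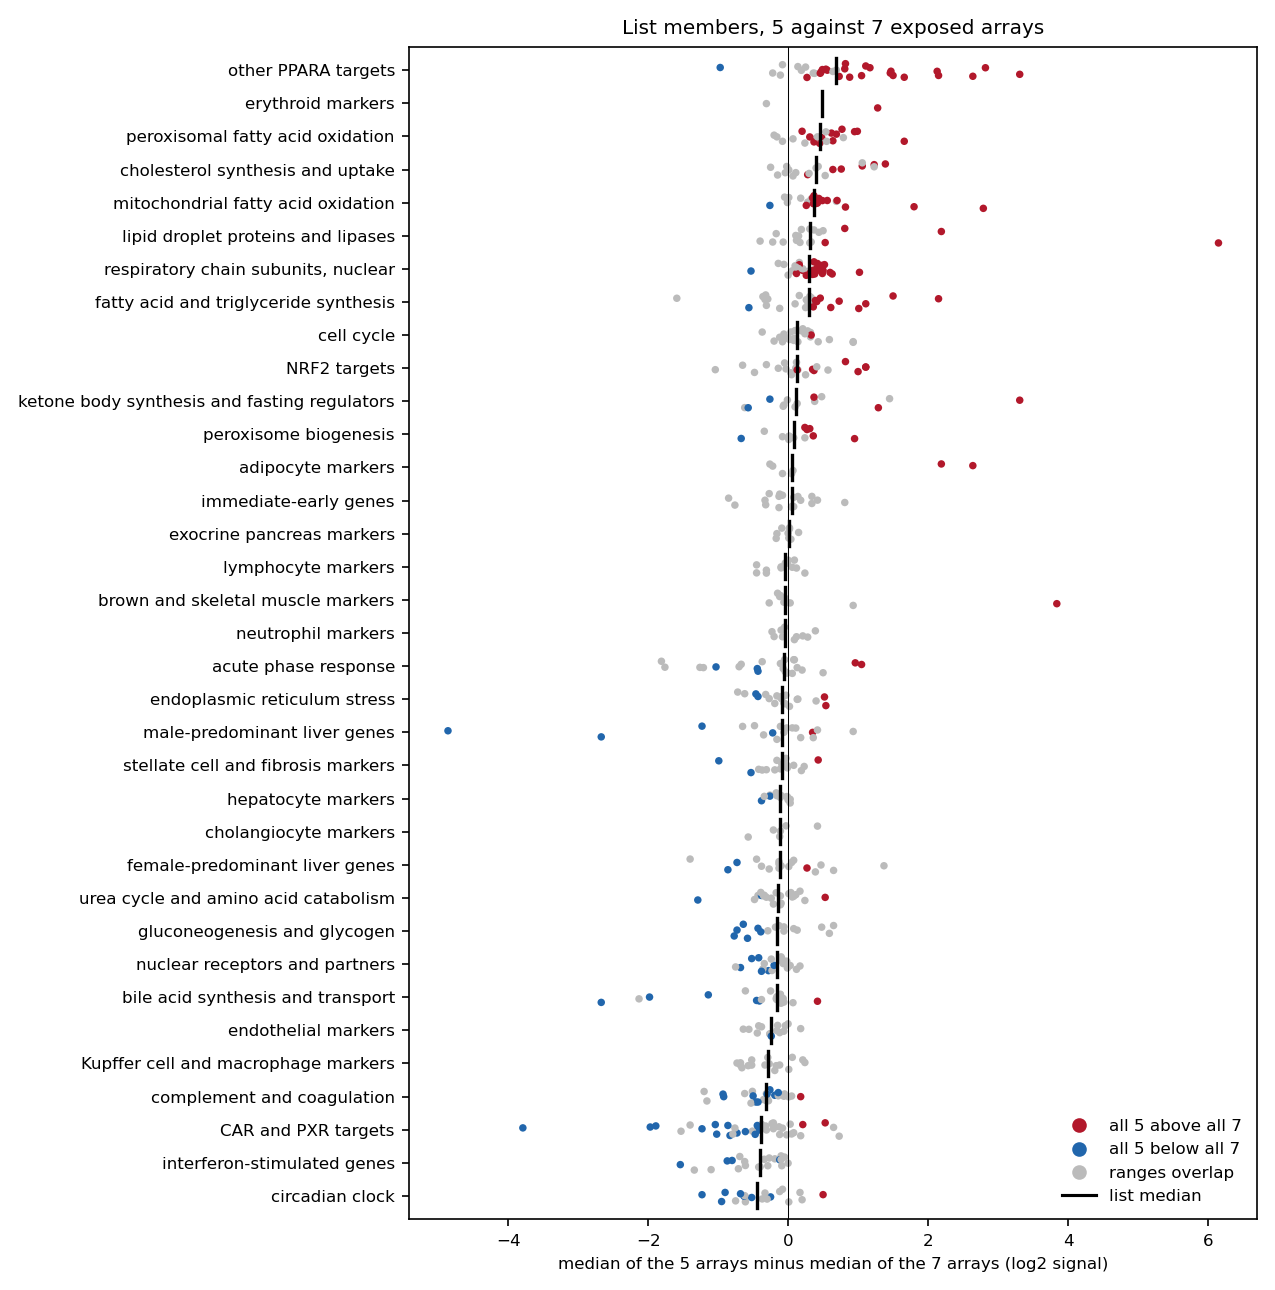
Difference of medians, the 5 minus the 7, in log2 signal (x axis) for every measured member of the 35 gene lists (y axis, ordered by list median). Each point is a gene, red where all 5 exceed all 7, blue where all 5 lie below all 7 and grey where the ranges overlap, and the black bar is the list median, which runs from -0.45 for the circadian clock to 0.69 for the other PPARA targets.

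Of 20 genes of bile acid synthesis and transport, 5 were lower in the 5 and 1 was higher (median -0.17). Slco1a1, an uptake carrier of the sinusoidal membrane, read 7.19, 5.70, 5.43, 7.41 and 6.97 in the 5, 8.92 to 10.42 in the 7 and 9.70 to 10.94 in the controls. Cyp39a1, an oxysterol hydroxylase, read 4.17 to 5.08 in the 5, 5.61 to 6.83 in the 7 and 6.54 to 8.0 in the controls, and Akr1d1, a steroid reductase of the same pathway, 7.73 to 8.71 in the 5, 9.23 to 9.74 in the 7 and 9.40 to 9.92 in the controls. Cyp7a1, the rate-limiting enzyme of bile acid synthesis, overlapped (7.36, 9.08, 6.43, 7.50 and 8.03 in the 5, a lowest value of 8.51, a median of 9.63 and a highest of 10.79 in the 7), although the 5 were below all controls (9.11 to 11.40).

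Male-predominant genes were divided, with 4 of 18 lower in the 5 and 1 higher. Hsd3b5, a steroid dehydrogenase of male mouse liver, read 2.68, 2.39, 2.96, 3.83 and 4.10 in the 5, a lowest value of 5.38, a median of 7.82 and a highest of 9.15 in the 7 and 7.43 to 8.78 in the controls. L-PFNA 3, at 5.38, was the lowest of the 7. Ugt2b1, a glucuronosyltransferase, read 10.04 to 10.95 in the 5, 11.82 to 12.30 in the 7 and 11.34 to 12.17 in the controls, whereas Elovl3, a fatty acid elongase, overlapped, with 10.78 to 11.47 in the 5 and 10.20 to 10.87 in the 7. Of 18 female-predominant genes, 2 were lower in the 5 and 1 was higher.

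In the list of complement and coagulation genes, most of which hepatocytes secrete, 9 of 25 were lower in the 5 and 1 was higher (median -0.31). The 25 include Olfr48, an olfactory receptor gene that entered through an older symbol and overlapped between the sets. F7, coagulation factor VII, read 9.21 to 9.31 in the 5, 9.98 to 10.42 in the 7 and 9.67 to 10.14 in the controls. C8a, a chain of the membrane attack complex, read 9.44 to 10.19 in the 5, 10.59 to 11.06 in the 7 and 10.32 to 11.07 in the controls. Of 21 interferon-stimulated genes, 4 were lower and none higher, and for 10 of them the 5 were below every control (median -0.40). Without H-PFNA 2 the count of lower ones was 11 of 21. Irf7, the transcription factor that amplifies interferon, read 6.62 to 7.0 in the 5, 7.86 to 8.59 in the 7 and 7.59 to 8.82 in the controls. Ifit1, an RNA-binding effector, overlapped between the sets (5.75 to 6.48 in the 5, 5.98 to 7.63 in the 7, 7.02 to 8.06 in the controls), with L-PFNA 2 and H-PFNA 2 at or below the highest of the 5.

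Of 20 circadian clock genes, 7 were lower in the 5 and 1 higher (median -0.45). Per1, a core repressor, read 7.07 to 7.88 in the 5, 8.15 to 8.80 in the 7 and 8.29 to 8.72 in the controls. Dbp, a clock output factor, read 9.37 to 10.20 in the 5, 10.36 to 10.95 in the 7 and 9.86 to 10.19 in the controls, so here it was the 7 that lay above the controls. Of 16 genes of gluconeogenesis and glycogen, 6 were lower in the 5 and none higher. Slc2a2, the liver glucose transporter, read 10.58 to 11.27 in the 5, 11.40 to 11.74 in the 7 and 10.96 to 11.32 in the controls, again with the 7 above the controls. Ppp1r3b, which targets a phosphatase to glycogen, was instead below the controls in the 5 (7.69 to 8.63 in the 5, 8.80 to 9.28 in the 7, 8.72 to 9.35 in the controls). Prodh, which begins proline breakdown, read 7.96 to 8.82 in the 5, 9.41 to 9.81 in the 7 and 8.96 to 9.54 in the controls, while the urea cycle and amino acid list had 1 gene higher and 2 lower of 22. Without H-PFOS 1 or H-PFOS 2 the lower ones in this list were 4 or 6, and without L-PFOS 3 the higher ones were 2. In the gluconeogenesis list, 1 was higher without H-PFOS 1 or H-PFNA 3 and 2 without L-PFNA 2.

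The genes with the widest gaps were not all members of these pathways. They were chosen by the split itself. The gap, the lowest of the 5 minus the highest of the 7, was 4.60 for Cidea and 3.88 for Sptlc3, a subunit of serine palmitoyltransferase, which begins sphingolipid synthesis. Sptlc3 read 9.53, 9.61, 8.88, 9.66 and 9.55 in the 5, 4.27 to 5.0 in the 7 and 3.12 to 4.30 in the controls. Otop1, a proton channel, read 8.48, 7.18, 8.98, 7.72 and 8.71 in the 5, 4.0 to 4.82 in the 7 and 4.10 to 4.84 in the controls. Lpl, lipoprotein lipase, which adult liver normally makes little of, read 9.34 to 9.73 in the 5, 6.89 to 7.58 in the 7 and 5.91 to 7.98 in the controls. Fabp4, the fatty acid binding protein of fat cells and macrophages, read 8.73 to 9.36 in the 5, 6.17 to 7.10 in the 7 and 5.48 to 6.73 in the controls.

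Ly6d, a small surface protein, read 9.01 to 10.00 in the 5, 5.72 to 6.99 in the 7 and, in controls, 8.28 in HFD 1 and 4.99 to 6.84 in the others. Slc39a5, a zinc importer, read 7.61 to 8.42 in the 5, 5.52 to 6.16 in the 7 and 5.24 to 5.81 in the controls, and Dgkh, a diacylglycerol kinase, 7.50 to 8.04 in the 5, 5.63 to 6.09 in the 7 and 5.49 to 6.13 in the controls. For all 10 genes with the widest gaps upward the 7 overlapped the controls.

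Among the genes lower in the 5, the widest gap (2.95) belonged to Cyp2c53-ps, annotated as a pseudogene of the Cyp2c family. It read 2.53 to 3.12 in the 5, a lowest value of 6.07, a median of 6.27 and a highest of 7.50 in the 7 and 2.50 to 3.89 in the controls, so the 7 stood out and the 5 were at control level. Slco1a4, an organic anion carrier of the CAR and PXR list, showed the reverse, with 4.49, 4.08, 4.58, 4.02 and 4.91 in the 5, 7.57 to 8.68 in the 7 and 7.57 to 9.0 in the controls. Pigr, which carries immunoglobulin A into bile, read 10.61 to 10.88 in the 5, 12.08 to 12.24 in the 7 and 11.96 to 12.21 in the controls. Sdr9c7, a dehydrogenase, read 5.97 to 6.59 in the 5, 7.63 to 8.27 in the 7 and 7.41 to 8.87 in the controls.

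For 2 of the remaining genes of the 10 the 5 overlapped the controls and the 7 were above them. Alg3, a mannosyltransferase of protein glycosylation, read 7.29 to 7.75 in the 5, 8.68 to 8.89 in the 7 and 7.16 to 7.74 in the controls, and Tmem104, a membrane protein, 6.48 to 6.78 in the 5, 7.71 to 7.88 in the 7 and 6.39 to 7.26 in the controls. Ecm1, an extracellular matrix protein of liver, was below the controls in the 5 and above them in the 7 (8.84 to 9.0 in the 5, 9.95 to 10.10 in the 7, 9.12 to 9.47 in the controls).

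**Figure D4:**
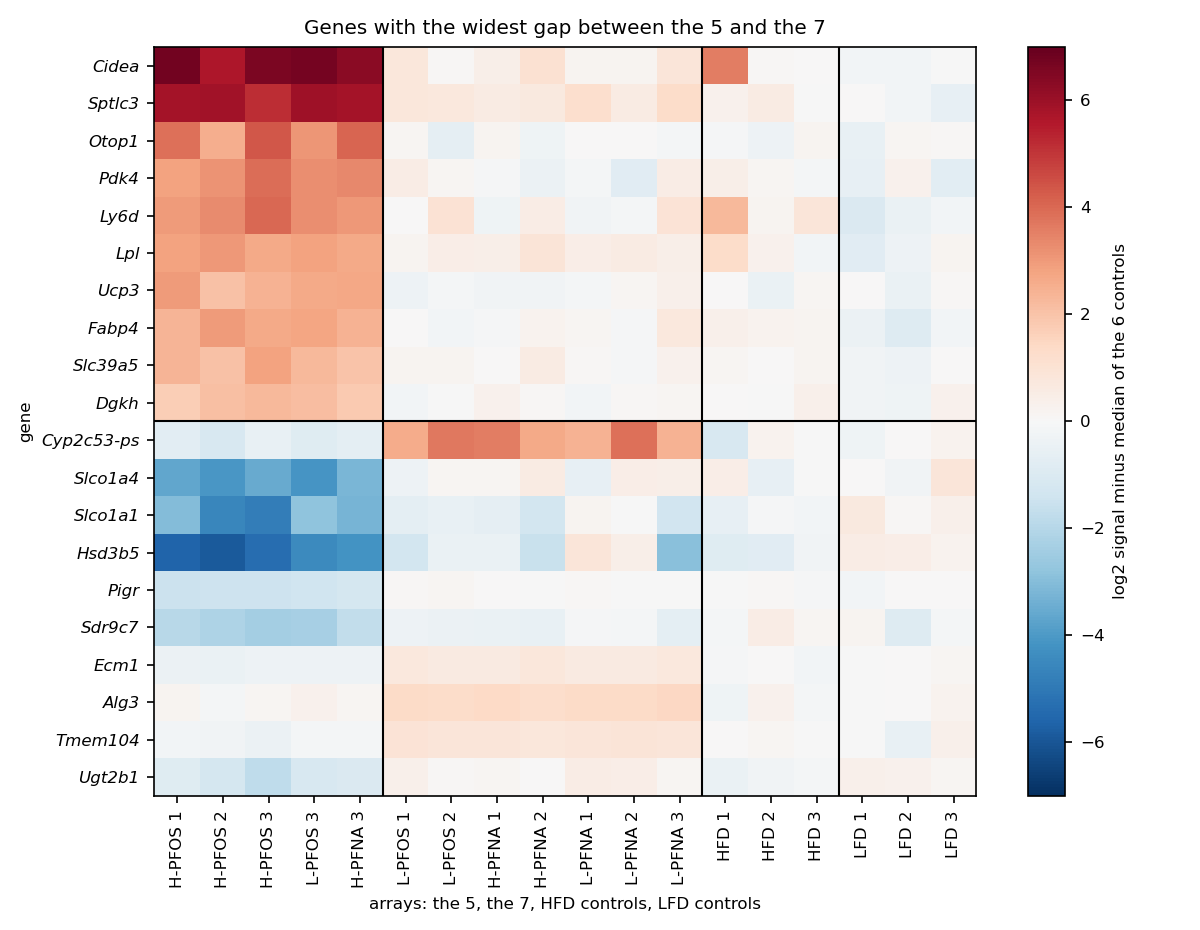
Log2 signal minus the median of the 6 controls (colour, red higher and blue lower) for the 10 genes with the widest gap upward and the 10 with the widest gap downward (y axis) in the 18 arrays (x axis), in the order of the 5, the 7, the HFD and the LFD controls. Cidea is high in the 5 and in HFD 1 (log2 signal 7.89), and Cyp2c53-ps is high in the 7 (log2 signal 6.07 to 7.50).

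Set against the controls, each set had its own share of the probes that parted them. Over all probes, all 5 exceeded all 6 controls for 1371 (3.98%) and lay below them for 747 (2.17%). All 7 exceeded them for 951 (2.76%) and lay below them for 476 (1.38%). Full separation is a stricter condition for 7 arrays than for 5, so the counts of the 2 sets are not on equal terms. All 12 exposed arrays were above all controls for 253 probes (0.734%) and below for 110 (0.319%). Of the 1456 probes higher in the 5, the 5 alone were above the controls for 663 (45.5%), the 7 alone were below them for 132 (9.07%), and both sets overlapped them for 598 (41.1%). Of the 1428 probes lower in the 5, the 7 alone were above the controls for 436 (30.5%), the 5 alone were below them for 259 (18.1%), and both overlapped them for 705 (49.4%). The median gap was 0.12 for probes higher in the 5 and 0.13 for those lower, so most separations were narrow.

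**Figure D5:**
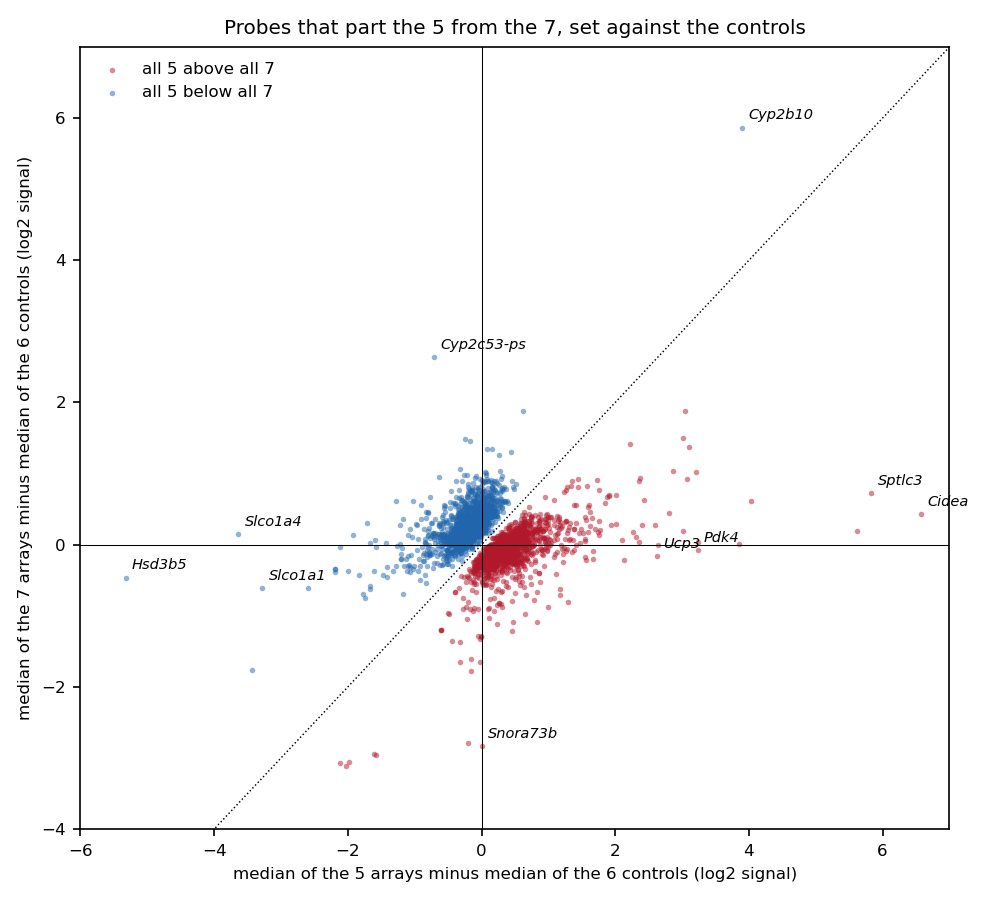
Median of the 5 minus median of the 6 controls (x axis) and median of the 7 minus median of the 6 controls (y axis), in log2 signal, for the 2884 probes whose ranges did not overlap between the sets. Red points are higher in the 5, blue points lower, and the dotted line marks equal distance from the controls. Cidea and Sptlc3 lie far along the x axis, Cyp2c53-ps is shifted in the 7, and Cyp2b10 is above the controls in both sets.

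Some small nucleolar RNAs, which guide chemical modification of ribosomal RNA, also had a lower signal in the 7 than in the 5. Of 76 such probes, 13 were higher in the 5 and none lower, with a median difference of 0.55. In 9 of the 13 the 5 overlapped the controls, and in 4 the 7 were below every control. Snora73a, named after its values were seen like the gene that follows, read 8.85 to 9.73 in the 5, 6.40 to 7.24 in the 7 and 8.74 to 9.90 in the controls. Snora73b read 9.31 to 10.11 in the 5, 6.74 to 7.41 in the 7 and 8.73 to 10.12 in the controls. For both the 5 were at control level and the 7 below it, so both are among these 4.

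Few single markers of other cells parted the sets, and of their list means only that of the adipocyte markers did. In whole liver RNA, fewer cells of a type and less RNA per cell cannot be told apart. None of 17 Kupffer cell and macrophage markers, 13 lymphocyte, 11 neutrophil, 6 cholangiocyte or 9 exocrine pancreas markers parted the sets, and 1 of 15 endothelial markers was lower in the 5. Leaving out H-PFNA 1 made this 7 of 15 endothelial and 2 of 17 Kupffer cell and macrophage markers lower, while at most 1 of the lymphocyte, neutrophil or cholangiocyte markers parted the sets without any 1 array. The mean signal of the Kupffer cell and macrophage markers was 6.72 to 7.05 in the 5, 6.75 to 7.37 in the 7, 6.41 to 7.49 in HFD and 6.52 to 7.09 in LFD livers, and of the endothelial markers 7.69 to 8.01 in the 5, 7.75 to 8.21 in the 7, 7.68 to 8.01 in HFD and 7.57 to 7.95 in LFD livers. Of 17 stellate cell markers 1 was higher and 2 lower. Of 7 adipocyte markers, Fabp4 and Cidec were higher in the 5, and the list mean was 5.43 to 5.57 in the 5, 4.67 to 5.20 in the 7 and 4.66 to 5.01 in the controls, while Plin1 and Retn, made by fat cells, were low everywhere. Plin1 read 4.27 to 4.68 in the 5 and 4.44 to 4.85 in the 7, and Retn read 4.21 to 4.51 in the 5 and 4.37 to 5.07 in the 7. Of 10 brown fat and muscle markers only Otop1 parted the sets (2 markers without H-PFNA 3 or L-PFOS 2), and of 2 erythroid markers Car2 did (7.22 to 8.04 in the 5, 5.98 to 6.61 in the 7). Of 13 hepatocyte markers 2 were lower in the 5, or 4 without H-PFOS 1, and for 4 the 5 were below every control. The 2 included Hnf4a, a hepatocyte transcription factor (9.89 to 10.25 in the 5, 10.35 to 10.75 in the 7, 10.40 to 10.96 in the controls).

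The labelled groups allow 3 comparisons that can be tested. The comparison of HFD with LFD controls asks whether diet alone moves these genes. Its differences come from control arrays only, but its spread was estimated over all 18 arrays, the exposed ones among them. With limma, 1 of 34472 probes was called (0.0029%, lower in HFD), 2222 had an unadjusted p under 0.05, and no member of any gene list was called. In a fit to the 2 control groups alone, 8 probes were called, 6 higher and 2 lower. In the fit to all 18 arrays, none of the 1456 probes higher in the 5 was called and 71 (4.88%) had an unadjusted p under 0.05. Of the 1428 lower ones none was called and 49 (3.43%) did, against 6.45% of all probes. L-PFOS 3 and H-PFNA 3 differ from their own groups at these probes, which widens the shared spread. A lower share than over all probes was thus built in, and nothing is read from it. The median HFD minus LFD difference, which does not use the spread, was 0.03 for probes higher in the 5, -0.02 for those lower and -0.01 for all probes. HFD was above LFD for 58.7% of the probes higher in the 5, 43.1% of those lower and 47.9% of all probes. The direction thus leaned with diet by small steps, and this lean was not tested. Ehhadh averaged 11.12 ± 0.06 in HFD livers and 11.42 ± 0.21 in LFD livers (SD, n = 3 each; log2 difference -0.30, SE 0.40, adjusted p = 0.948), and Cyp2b10 4.10 ± 0.34 in HFD livers and 4.19 ± 0.39 in LFD livers (log2 difference -0.09, SE 0.67, adjusted p = 0.994). Cyp2b9 averaged 11.72 ± 0.22 in HFD livers and 9.12 ± 1.09 in LFD livers (log2 difference 2.60, SE 0.41, adjusted p = 0.0912), the widest such difference among the 22 measured genes of the fixed marker and receptor set.

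H-PFOS is the only exposed group that lies wholly within the 5. Against HFD it had 218 probes called higher (0.632%) and 134 lower (0.389%), 1.02% in all. Its arrays, like those of L-PFNA below, took part in the split. Neither list counts nor tests of single genes in these 2 comparisons, those of the markers above all, are therefore independent evidence of it. Acot1 rose, with 11.32 ± 0.48 in H-PFOS livers and 8.61 ± 0.25 in HFD livers (SD, n = 3 each, as below; log2 difference 2.71, SE 0.37, adjusted p = 0.00218). Ehhadh rose, with 13.10 ± 0.18 in H-PFOS livers and 11.12 ± 0.06 in HFD livers (log2 difference 1.98, SE 0.40, adjusted p = 0.0259), as did Acaa1b, with 12.41 ± 0.05 in H-PFOS livers and 11.45 ± 0.05 in HFD livers (log2 difference 0.96, SE 0.13, adjusted p = 0.00178), and Cyp4a14, with 13.47 ± 0.07 in H-PFOS livers and 12.68 ± 0.11 in HFD livers (log2 difference 0.79, SE 0.13, adjusted p = 0.00935). Cyp2b10 also rose, with 8.48 ± 1.08 in H-PFOS livers and 4.10 ± 0.34 in HFD livers (log2 difference 4.39, SE 0.67, adjusted p = 0.00621), and so did Cyp2c55, with 7.28 ± 0.38 in H-PFOS livers and 4.78 ± 0.17 in HFD livers (log2 difference 2.50, SE 0.47, adjusted p = 0.0183). The calls of Ehhadh and Cyp2c55 ended when any single H-PFOS or HFD array was left out, and that of Cyp4a14 without H-PFOS 2. Those of Acot1, Acaa1b and Cyp2b10 held under each of 12 other settings.

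Pdk4 and Cidea did not pass the test in H-PFOS livers despite their distance from HFD. Pdk4 averaged 10.60 ± 0.55 in H-PFOS livers and 7.45 ± 0.28 in HFD livers (log2 difference 3.15, SE 0.81, adjusted p = 0.0683), and Cidea averaged 10.61 ± 0.58 in H-PFOS livers and 5.53 ± 2.04 in HFD livers (log2 difference 5.08, SE 1.48, adjusted p = 0.109). In this fit all 6 groups share 1 estimate of the spread, and L-PFOS and H-PFNA each hold arrays of both sets. Cyp3a11 (log2 difference 1.02, adjusted p = 0.0503), Cd36 (1.12, adjusted p = 0.0874) and Nqo1 (0.76, adjusted p = 0.0758) missed the threshold. By list, 6 of 24 peroxisomal, 4 of 21 mitochondrial and 12 of 33 other PPARA genes rose and none fell, and 2 of 37 CAR and PXR genes rose and 1 fell. None of the 30 respiratory chain subunits was called. Without L-PFOS 3 and H-PFNA 3 the counts were 13 peroxisomal, 12 mitochondrial and 20 other PPARA genes higher. In that fit 7 CAR and PXR genes and 4 respiratory chain subunits were higher, and 3 CAR and PXR genes were lower. Since those arrays were set apart by the values of such genes, the smaller spread behind these counts follows from the choice, and nothing is read from them.

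L-PFNA is the only exposed group that lies wholly within the 7, and it shares no array with the comparison of H-PFOS with HFD. Against LFD it had 129 probes called higher (0.374%) and 66 lower (0.191%), 0.566% in all. Cyp2b10 rose, with 9.90 ± 0.45 in L-PFNA livers and 4.19 ± 0.39 in LFD livers (log2 difference 5.71, SE 0.67, adjusted p = 0.00125), and Cyp2c55, with 7.97 ± 0.49 in L-PFNA livers and 4.25 ± 0.41 in LFD livers (log2 difference 3.72, SE 0.47, adjusted p = 0.00196). Gstm3 rose, with 8.99 ± 0.86 in L-PFNA livers and 5.20 ± 0.55 in LFD livers (log2 difference 3.79, SE 0.65, adjusted p = 0.0128), as did Cyp2b9, with 11.35 ± 0.61 in L-PFNA livers and 9.12 ± 1.09 in LFD livers (log2 difference 2.23, SE 0.41, adjusted p = 0.0205), Cyp3a11, with 11.14 ± 0.33 in L-PFNA livers and 9.97 ± 0.38 in LFD livers (log2 difference 1.17, SE 0.24, adjusted p = 0.0324), Abcc3, with 11.07 ± 0.11 in L-PFNA livers and 10.12 ± 0.26 in LFD livers (log2 difference 0.95, SE 0.13, adjusted p = 0.00439), and Nqo1, with 6.61 ± 0.35 in L-PFNA livers and 5.70 ± 0.23 in LFD livers (log2 difference 0.91, SE 0.20, adjusted p = 0.0495). The calls of Cyp2b10, Cyp2c55 and Abcc3 held under each of 12 other settings, whereas Nqo1 and Cyp3a11 lost theirs without any single array of either group. The call of Gstm3 ended without LFD 1, LFD 2 or L-PFNA 3, and that of Cyp2b9 without LFD 1, LFD 2, L-PFNA 2 or L-PFNA 3. Cyp2b9, Cyp3a11 and Nqo1 also lost the call in a fit to the 2 groups alone, and Nqo1 after quantile normalization.

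Of the PPARA markers, none of Ehhadh, Acot1 and Pdk4 passed the test in L-PFNA livers. Ehhadh averaged 11.40 ± 0.17 in L-PFNA livers and 11.42 ± 0.21 in LFD livers (log2 difference -0.02, 95% interval -0.86 to 0.82, adjusted p = 0.993). Acot1 averaged 9.79 ± 0.22 in L-PFNA livers and 9.38 ± 0.12 in LFD livers (log2 difference 0.41, 95% interval -0.37 to 1.18, adjusted p = 0.709). Pdk4 averaged 7.18 ± 0.67 in L-PFNA livers and 6.97 ± 0.56 in LFD livers (log2 difference 0.21, 95% interval -1.50 to 1.92, adjusted p = 0.956). The intervals for Pdk4 and Acot1 still include differences of more than 1 log2 unit. The spread behind them is shared by all 6 groups. L-PFOS and H-PFNA hold arrays of both sets, which widens that spread for genes that part the sets. Few calls in the PPARA lists therefore do not show that these genes were unchanged in L-PFNA livers. By list, none of 24 peroxisomal, 1 of 21 mitochondrial and 1 of 33 other PPARA genes rose, and 8 of 37 CAR and PXR genes rose, with none falling in any of these lists. The mitochondrial gene was Acad10, an acyl-CoA dehydrogenase relative (7.13 ± 0.19 in L-PFNA livers and 6.39 ± 0.10 in LFD livers; log2 difference 0.74, SE 0.15, adjusted p = 0.0292), and the other was Krt23, a keratin (7.61 ± 0.03 in L-PFNA livers and 5.90 ± 0.32 in LFD livers; log2 difference 1.71, SE 0.29, adjusted p = 0.0125), both named after their values were seen. The call of Acad10 ended without any single array of either group and in a fit to the 2 groups alone, and that of Krt23 without LFD 1, LFD 2 or L-PFNA 3. Without L-PFOS 3 and H-PFNA 3 the counts were 0, 2 and 4 higher for the PPARA lists, Cd36 among them (adjusted p = 0.0316), and 13 for the CAR and PXR list, again with a smaller spread built into that choice. The difference between the H-PFOS and the L-PFNA responses was not tested, since the groups differ in both diet and compound.

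The genes that encode CAR and PPARA did not pass the test in either comparison. Nr1i3 averaged 10.62 ± 0.25 in H-PFOS livers and 11.08 ± 0.16 in HFD livers (adjusted p = 0.285), and 11.24 ± 0.18 in L-PFNA livers and 11.06 ± 0.18 in LFD livers (adjusted p = 0.749). Ppara averaged 9.88 ± 0.12 in H-PFOS livers and 9.91 ± 0.08 in HFD livers (adjusted p = 0.94), and 9.87 ± 0.09 in L-PFNA livers and 9.95 ± 0.06 in LFD livers (adjusted p = 0.851). In the list of 22 nuclear receptors and partners 1 gene fell in each comparison and none rose, both named after their values were seen. Ahr fell in H-PFOS livers, with 7.87 ± 0.17 in H-PFOS livers and 8.99 ± 0.29 in HFD livers (log2 difference -1.12, SE 0.26, adjusted p = 0.0445), a call that ended without any single array of either group. Ppargc1a, a coactivator of PPARA, fell in L-PFNA livers, with 6.77 ± 0.32 in L-PFNA livers and 7.87 ± 0.23 in LFD livers (log2 difference -1.10, SE 0.20, adjusted p = 0.0163), a call that ended without LFD 2, LFD 3, L-PFNA 1 or L-PFNA 3 and in a fit to the 2 groups alone. L-PFOS and H-PFNA were not tested against their controls here, because a mean over arrays of both sets describes neither: Ehhadh, for example, read 13.17 in L-PFOS 3 and 11.28 and 11.64 in L-PFOS 1 and 2, and 13.18 in H-PFNA 3 and 11.70 and 11.51 in H-PFNA 1 and 2.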

How the data were processed

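Liver RNA of 18 mice was measured on a gene-level array. Per the labels' protocols, Trizol extracts of total RNA carried a biotin label. The log2 signal values deposited by the authors came from Transcriptome Analysis Console, as the submitters' processing notes state. How background, normalization and summarization were handled remains not given in the sources used here. For these values the base of the logarithm was read from the range (0.91 to 14.01), since no label names it. Probes were named through GEO's platform annotation: 23521 had 1 symbol, 1814 several and 9137 none, and 23328 of the first were matched in RefSeq by Entrez number. Each gene was represented by its brightest probe on average. The array number limits the precision.

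The sets, the 35 gene lists (681 genes, 602 measured) and the marker and receptor set of 27 genes (22 measured) were chosen with earlier results of these data known. Named genes were the marker and receptor set, the 10 widest gaps each way (leaving out predicted models, small RNAs and receptor segments), and up to 4 members per list by the difference of medians. Probes were described by set with ranges, medians and gaps. Labelled groups were tested with limma 3.58.1 in R 4.3.3, with 1 mean per group, 12 residual and 5.21 prior degrees of freedom, and Benjamini-Hochberg adjustment within each comparison over all 34472 probes, called at an adjusted p under 0.05. Errors are the fit's standard errors. The code was tested on simulated data. The labels call the arrays biological replicates without naming animals. Motifs were searched in RefSeq promoters of GRCm38.p6. Alternatives were quantile normalization, a mean signal of at least 5, the 2 groups alone, trend and robust variances, the replicate number as a block, the median over all probes of a gene, and leaving out arrays.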

Additional observations from a re-analysis of the deposited data

Results flagged for a closer look

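In H-PFOS 3, Sptlc3 read 8.88 and stood apart from the other 4 of the 5 arrays, whose nearest value was 9.53. The gap was 0.833 of the range of the 5, above the critical value for 5 samples of Dixon's test. It was the only such case among 80 sets of values over 40 genes, where chance gives about 1 in 20. The value is still above the 4.27 to 5.0 of the 7.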

How the results depend on the processing

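The counts of called probes depended on the settings, while no called difference of a named marker gene changed sign under any setting run. For H-PFOS against HFD, 352 probes were called in the fit reported, 910 among probes with a mean signal of at least 5, 550 with trend and robust variances, 1011 without L-PFOS 3 and H-PFNA 3, and 61 to 184 without any 1 of the compared arrays. For L-PFNA against LFD, 195 were called, and 686, 388 and 593 under the same 3 settings, and 26 to 127 without any 1 array. L-PFOS 3 and H-PFNA 3 were left out because of their values, so the smaller spread that remains follows from that choice. For HFD against LFD, 1 probe was called (lower), 2 after quantile normalization, 0 among probes with a mean signal of at least 5, 8 in the compared groups alone (6 higher and 2 lower), 2 with trend and robust variances, 0 without L-PFOS 3 and H-PFNA 3, and 0 to 3 without any 1 array. Quantile normalization gave 375 and 203 probes for the first 2 comparisons, and the compared groups alone 283 and 194. With the replicate number as a block the 3 counts were 414, 208 and 3. Deviations of same-numbered arrays correlated between -0.072 and 0.037 within the 3 comparisons, so the numbers did not pair the arrays there. L-PFOS and H-PFNA were not part of this check. L-PFOS 3 and H-PFNA 3 carry the same replicate number, and whether that number has a part in their values was not tested. The 2884 probes that parted the sets (1456 higher and 1428 lower) became 2950 after quantile normalization (1429 and 1521), 2695 with a mean signal of at least 5 (1334 and 1361), 3072 to 3605 without any 1 array, and 3949 without L-PFOS 3 and H-PFNA 3. Among calls of single marker and receptor genes, 120 stayed and 36 were lost. For the gene lists, 477 repeats kept both the count higher and the count lower in the 5 within 1.5 times the one reported, and 48 moved at least 1 of them.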

Other observations

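HFD 1 differed from the other 2 unexposed high-fat livers in some genes that were also high in the 5, the lipid droplet genes Cidea and Cidec among them. Cidea read 7.89 in HFD 1 and 4.38 and 4.32 in HFD 2 and 3. Cidec, which fuses lipid droplets, read 9.07, against 6.74 and 6.99. Ly6d read 8.28, against 6.2 and 6.84, and Lpl 7.98, against 7.0 and 6.51. The oxidation genes did not follow, since Ehhadh read 11.17, 11.05 and 11.13 in HFD 1, 2 and 3, and Pdk4 7.71, 7.47 and 7.16. HFD 1 was also the highest of the 3 in the mean signal of markers of other cells: 7.35 against 6.6 and 6.76 for stellate cells, 5.13 against 4.35 and 4.55 for cholangiocytes, 7.49 against 7.20 and 6.41 for Kupffer cells and macrophages, and 5.01 against 4.73 and 4.69 for adipocytes. Their part in the values of Cidea, Cidec, Ly6d and Lpl was not tested.

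Among the 7, Cyp2b13, a relative of Cyp2b10 that is known to be higher in female mice, spread widely without following diet or compound. It read 7.95 in L-PFOS 1 and 5.38 in L-PFOS 2, 5.47 in H-PFNA 1 and 8.98 in H-PFNA 2, and 5.61, 6.47 and 9.32 in L-PFNA 1, 2 and 3. Hsd3b5, the male-predominant steroid dehydrogenase, was lowest of the 7 in L-PFNA 3 (5.38), H-PFNA 2 (6.71) and L-PFOS 1 (7.0), the 3 arrays that were highest for Cyp2b13. These genes were picked after their values were seen, and the relation was not tested.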
